A study of Mus musculus with 12 samples.

Results

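The 6 myosin heavy chain genes *Myh1*, *Myh2*, *Myh3*, *Myh4*, *Myh7* and *Myh8* were described in RNA-seq data of isolated mouse muscle fibers. They were chosen by name, and all 6 were found among the 55367 gene symbols of the data. Fibers were isolated from the extensor digitorum longus (EDL), a fast hindlimb muscle, of C57BL/6J mice, and dissociated with collagenase. The young group came from 3–4-month-old mice, and the aged groups came from 26–28-month-old mice. The authors bought C57BL/6J mice from the Jackson Laboratory, and aged mice came from the National Center for Geriatrics and Gerontology. If the young mice were the bought ones, age and animal source cannot be told apart. Fluo-4, a fluorescent Ca2+ indicator, was used to sort the aged fibers under a fluorescence stereomicroscope. Those with the usual staining are called Fluo-4 normal, and those with aberrant staining, which hold structures like tubular aggregates of the sarcoplasmic reticulum, are called Fluo-4 abnormal. Each of the 3 groups had 4 samples, and neither the number of fibers or mice per sample nor the sex of each sample is given in the sources used here. The authors described the aberrant staining in aged male mice and hardly found it in aged females.

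Myosin heavy chain is the motor protein of the thick filament, and each sarcomeric isoform sets how fast a fiber shortens and how much ATP it uses. In adult mouse limb muscle, *Myh7* marks slow type I fibers, *Myh2* type IIa fibers, *Myh1* type IIx fibers and *Myh4* type IIb fibers, the fastest and most glycolytic type. *Myh3* and *Myh8* encode the embryonic and neonatal isoforms, which are mainly expressed in developing and regenerating muscle. Fibers can hold more than 1 isoform, and hybrids of neighbouring types are common.

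Values were in TPM, a unit of transcript abundance. TPM values correct for transcript length and sum to 1000000 in each sample, so a TPM value is a share of all transcripts and the read depth is unknown. The summed TPM of *Acta1*, *Ckm*, *Mylpf* and *Tnnt3*, which mark skeletal muscle fibers, was 103885 to 136912 over the 12 samples. The summed markers of fibroblasts were at 13.2 to 77.9 TPM and those of erythroid cells at 21.2 to 296.2 TPM, with the highest value of both in Fluo-4 normal replicate 2. The 3 smooth muscle markers reached 58.8 TPM in 1 young sample and no more than 6.12 TPM in the aged samples. The satellite cell, endothelial, immune and Schwann cell markers summed to 9.40 TPM or less in each sample, and the 3 adipocyte markers were listed at 0. Of these markers 1 was called, the Schwann cell marker *Sox10*, which was higher in abnormal than in young fibers (0.242 ± 0.0914 against 0.0218 ± 0.0435 TPM, SD, n = 4, adjusted p = 0.021 from limma), and its part in the results was not tested. Replicate 1 of the Fluo-4 normal fibers stood apart from the other 3 Fluo-4 normal samples in *Myh1* and had the lowest TMM-type scale factor of all samples (0.809), so the values that it moves most are given with and without it. The rule for outliers used below flagged it for *Myh8* but not for *Myh1*. As it was singled out by its low *Myh1*, leaving it out widens the *Myh1* difference between abnormal and normal fibers by choice.

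*Myh3*, *Myh2*, *Myh1*, *Myh4* and *Myh8* lie in this order on the forward strand of chromosome 11 (GRCm39, GENCODE vM39), within 230.3 kb from 66969126 to 67199462. *Myh4* spans 67128336 to 67151274, *Myh1* 67089132 to 67116631, *Myh2* 67061838 to 67088989, *Myh3* 66969126 to 66993117 and *Myh8* 67167746 to 67199462. *Myh7* is on the reverse strand of chromosome 14, from 55208141 to 55232084. The cluster genes are close copies: the canonical transcript of *Myh4* aligned to that of *Myh1* at 89.9% identity over 5916 bases, to *Myh2* at 88.1% and to *Myh8* at 87.7%, but to *Myh3* at 80.6% and to *Myh7* at 77.9%. Of all stretches of 100 bases in the canonical transcript, 3.89% for *Myh4*, 7.60% for *Myh1*, 8.20% for *Myh2* and 5.17% for *Myh8* also occur exactly in a transcript of another of the 6 genes, and none did so for *Myh3* and *Myh7*. For *Myh4*, 2.27% of these stretches occur in a transcript of *Myh1*. Reads from such stretches could be split between the genes, so the levels of *Myh1*, *Myh2* and *Myh8* beside very high *Myh4* are uncertain.

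The region just before the start of the adult fast genes holds an identical run of 20 bases, which is shown because *Myh4*, *Myh1* and *Myh2* share it although their levels differed widely in these fibers. In the RefSeq table of 250 bases before each gene start (GRCm38.p6), it was found by searching for the longest stretch common to the 3 genes, and a part of 14 bases also occurs before *Myh8*. The lines give 30 bases on the forward strand, 5′ to 3′, and capitals mark the shared run.
Myh4: caagaAATATTTCTAATTATATCCAttcac
Myh1: gagggAATATTTCTAATTATATCCAaacat
Myh2: agaaaAATATTTCTAATTATATCCAaccat
Myh8: atatgaatacTTCTAATTATATCCgaagat

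Matched to GRCm39, these lie at chr11:67128470-67128499 for *Myh4*, chr11:67090758-67090787 for *Myh1*, chr11:67061718-67061747 for *Myh2* and chr11:67167886-67167915 for *Myh8*. The run starts 163 bases before the RefSeq start of *Myh4*, 165 before that of *Myh1*, 130 before that of *Myh2* and 54 before that of *Myh8*. GENCODE places the stretch of *Myh2* outside any exon, but those of *Myh4*, *Myh1* and *Myh8* in a UTR of annotated transcripts of these genes, and that of *Myh4* also in an exon of the antisense gene *Myhas*. On either strand, the run of 20 bases was held by 3 of the 27025 windows in the table (0.0111%), those of the 3 genes named, and the run of 14 bases by 4 (0.0148%). The letters TATAAAAG, which 1.62% of all windows hold, were found for *Myh4*, *Myh1* and *Myh3*. The E-box letters CANNTG, held by 66.0% of all windows, were found at 2 positions for *Myh4*, at 1 each for *Myh3*, *Myh7* and *Myh8*, and at none for *Myh1* and *Myh2*. These are matches of letters and do not show that a factor binds.

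*Myh4* was the main isoform in each of the 12 samples, and *Myh1* came next in each. *Myh4* ranked 12 to 22 among the 14428 genes tested and *Myh1* 187 to 1783, ordered by TPM within a sample. *Myh2* and *Myh8* shared the places 3 and 4, with overlapping levels, and *Myh3* and *Myh7* shared the last places at or under 0.205 TPM. Compared per length, *Myh4* was thus above *Myh1*, and *Myh1* above *Myh2* and *Myh8*, beyond any overlap. *Myh2* and *Myh8* overlapped with each other, and so did *Myh3* and *Myh7*.

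**Figure D1:**
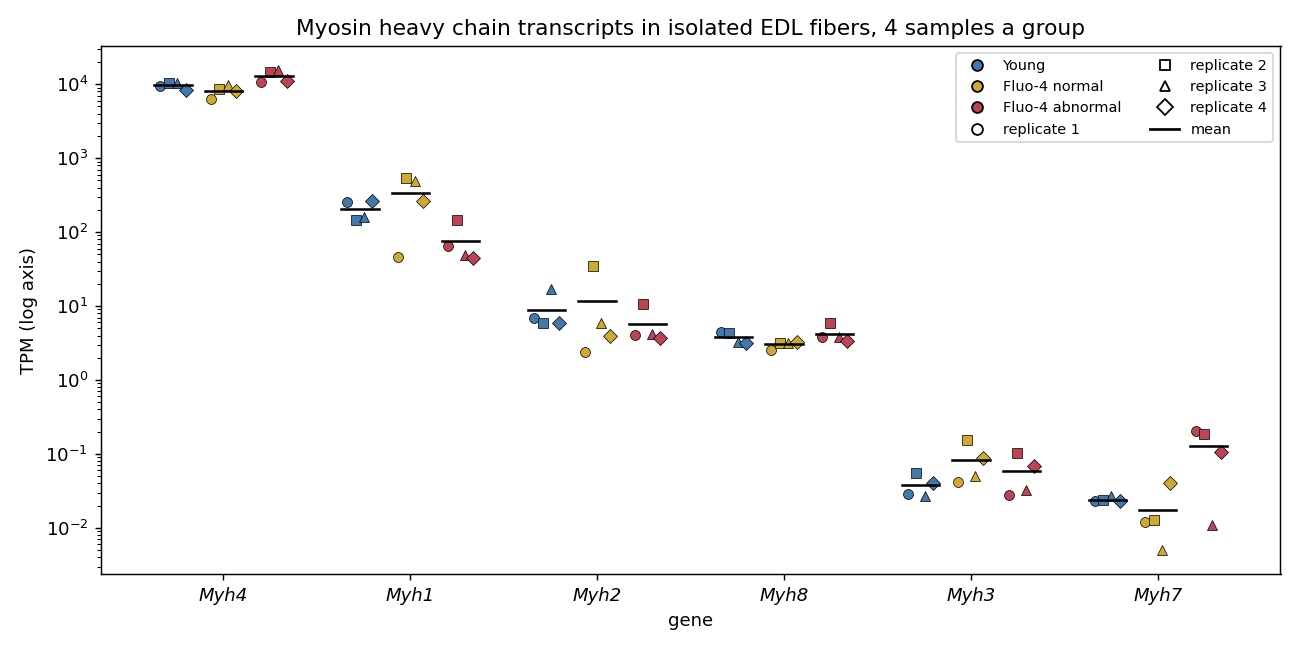
TPM (log axis) of the 6 myosin heavy chain genes in the 4 samples of each group, with the marker shape giving the replicate number and the bar the group mean. *Myh4* lies at 6254 to 15574 TPM, with all Fluo-4 abnormal samples above the others, and *Myh1* at 44.3 to 541.5 TPM, with 1 Fluo-4 normal sample far below the other 3.

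*Myh4*, the type IIb isoform, had its highest levels in the Fluo-4 abnormal fibers. It was at 10770, 14714, 15574 and 10992 TPM in replicates 1 to 4 of the Fluo-4 abnormal fibers and at 6254, 8598, 9813 and 8159 TPM in those of the Fluo-4 normal fibers. The young fibers had 9586, 10381, 10312 and 8311 TPM. In TPM, every Fluo-4 abnormal sample was above every Fluo-4 normal and every young sample, whereas the Fluo-4 normal and young samples overlapped. The separation from the young samples did not hold after division by the TMM-type scale factors. The means were 13013 ± 2488 (SD, n = 4), 8206 ± 1478 and 9648 ± 961 TPM in abnormal, normal and young fibers. On the log2(TPM + 1) scale, *Myh4* was 0.66 higher in abnormal than in normal fibers (standard error 0.16, 95% interval 0.32 to 1.00), 1.59-fold as a ratio of mean TPM, with an adjusted p = 0.020 from limma.

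Of the 6 genes, *Myh4* was the 1 that passed the threshold of an adjusted p of 0.05 between abnormal and normal fibers, where 9.35% of all 14428 genes passed it. *Myh4* and *Myh8* were the 2 of the 6 genes whose TPM did not overlap between these groups, as for 14.0% of all genes. The median log2 difference over all genes was 0.10, and over the 6348 genes with a mean of 5 TPM or more in a group it was 0.20. With TMM-type scale factors (trimmed means of log ratios between samples), which remove this shift, the *Myh4* difference was 0.44 (adjusted p = 0.18). This scaling turned the balance of calls over all genes from 1062 higher and 287 lower to 306 higher and 542 lower. Among genes of at least 5 TPM, the median over the 745 with a canonical transcript of 6000 bases or more was 0.35. The canonical transcript of *Myh4* has 5954 bases, and the part of transcript length in its difference was not tested.

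Aged samples of the same number deviated together, and with the number as a block the adjusted p of *Myh4* was 0.0010 for the same difference. With the block and the TMM-type factors together it was 0.055. The *Myh4* call was lost without Fluo-4 normal replicate 1 (0.54, adjusted p = 0.051), without Fluo-4 abnormal replicate 2 (0.60, adjusted p = 0.068) and without Fluo-4 abnormal replicate 3 (0.57, adjusted p = 0.054). Against young fibers, *Myh4* was 0.42 higher in abnormal fibers (standard error 0.16, adjusted p = 0.13) and 0.25 lower in normal fibers (standard error 0.16, adjusted p = 0.56), and limma called neither. Over all alternatives, the difference between abnormal and young fibers was 0.24 to 0.50 (adjusted p = 0.052 to 0.49 from limma).

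*Myh1*, the type IIx isoform, was at 64.5, 146.9, 48.5 and 44.3 TPM in replicates 1 to 4 of the Fluo-4 abnormal fibers. In the Fluo-4 normal fibers it was at 46.2, 541.5, 487.8 and 261.6 TPM, and in the young fibers at 257.9, 146.7, 158.3 and 261.8 TPM. Replicate 1 of the normal fibers was the lowest but 1 of the 12 samples, while the other 3 normal samples were above all abnormal samples. The difference between abnormal and normal fibers was -1.81 on the log2(TPM + 1) scale (standard error 0.63, 95% interval -3.16 to -0.46), with an adjusted p = 0.087 from limma, so it did not pass. In such bulk samples, fewer fibers of a type and less RNA of it per fiber cannot be told apart. The difference passed with the replicate block (adjusted p = 0.025), with the block and the TMM-type factors together (-2.03, adjusted p = 0.019), and without Fluo-4 normal replicate 1 (-2.59, adjusted p = 0.0030). It also passed with a filter of 5 TPM, but in 18 of the 22 alternatives it did not (adjusted p up to 0.22 from limma).

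Against young fibers, the *Myh1* difference was -1.55 in abnormal fibers (standard error 0.63, adjusted p = 0.15) and 0.26 in normal fibers (standard error 0.63, adjusted p = 0.92). None of the 6 genes passed in either comparison with young fibers, where 8.5% and 1.15% of all genes did, respectively. Without correction, *Myh4*, *Myh1* and *Myh7*, 3 of the 6 genes, were under 0.05 in limma between abnormal and young fibers, as were 3323 of all 14428 genes, and none of the 6 between normal and young fibers, where 1865 of all genes were. Without Fluo-4 normal replicate 1, which enters this fit through the shared spread, the *Myh1* difference between abnormal and young fibers passed (-1.55, adjusted p = 0.015).

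*Myh2*, the type IIa isoform, was at 4.09, 10.6, 4.26 and 3.74 TPM in abnormal fibers, at 2.38, 34.6, 5.93 and 3.93 TPM in normal fibers, and at 6.91, 5.87, 17.2 and 5.87 TPM in young fibers. In each group 1 sample stood well above the other 3, and it was replicate 2 in both aged groups. The groups overlapped, and the differences on the log2(TPM + 1) scale were -0.37 between abnormal and normal fibers (standard error 0.60, adjusted p = 0.73), -0.55 between abnormal and young fibers (standard error 0.60, adjusted p = 0.64) and -0.18 between normal and young fibers (standard error 0.60, adjusted p = 0.94). The 95% interval of the first, -1.65 to 0.91, leaves room for a large difference either way. Without Fluo-4 normal replicate 2, which also had the highest fibroblast and erythroid marker sums, the first turned to 0.35 (adjusted p = 0.63), and the part of other cells in its *Myh2* level was not tested.

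*Myh7*, the slow isoform, was nearly undetected: it was at 0.205, 0.189, 0.011 and 0.108 TPM in abnormal fibers, at 0.012, 0.013, 0.005 and 0.040 TPM in normal fibers, and at 0.023 to 0.027 TPM in young fibers. In 3 of the 4 abnormal samples it was above every other sample, and the fourth was within the range of normal fibers. At these levels the log2(TPM + 1) scale compresses differences, and abnormal exceeded normal fibers by 0.15 (standard error 0.054, adjusted p = 0.11). Without Fluo-4 abnormal replicate 3 it passed, at 0.20 (adjusted p = 0.026), and likewise against young fibers (0.19, adjusted p = 0.030).

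*Myh8*, the neonatal isoform, was at 3.77, 5.85, 3.76 and 3.33 TPM in abnormal fibers, at 2.55, 3.16, 3.17 and 3.24 TPM in normal fibers, and at 3.17 to 4.50 TPM in young fibers. In TPM, the abnormal samples were above the normal samples, by 0.34 on the log2(TPM + 1) scale (standard error 0.17, adjusted p = 0.24), and both aged groups overlapped with young fibers. The separation of abnormal from normal samples did not hold after division by the TMM-type scale factors. Over all alternatives, this difference was 0.16 to 0.42. Relative to *Myh4*, *Myh8* was at 0.0241% to 0.0397% in abnormal fibers, 0.0323% to 0.0408% in normal fibers and 0.0313% to 0.0469% in young fibers, a narrow range over samples whose *Myh1* to *Myh4* ratio spanned 0.311% to 6.30%. *Myh3*, the embryonic isoform, was at 0.027 to 0.156 TPM over all 12 samples, with its highest value in Fluo-4 normal replicate 2, and its differences in the 3 comparisons ran from -0.03 to 0.06 on the log2(TPM + 1) scale. At such levels this scale compresses differences. As ratios of mean TPM they were 0.70 (abnormal to normal), 1.55 (abnormal to young) and 2.22 (normal to young), and limma called none.

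**Figure D2:**
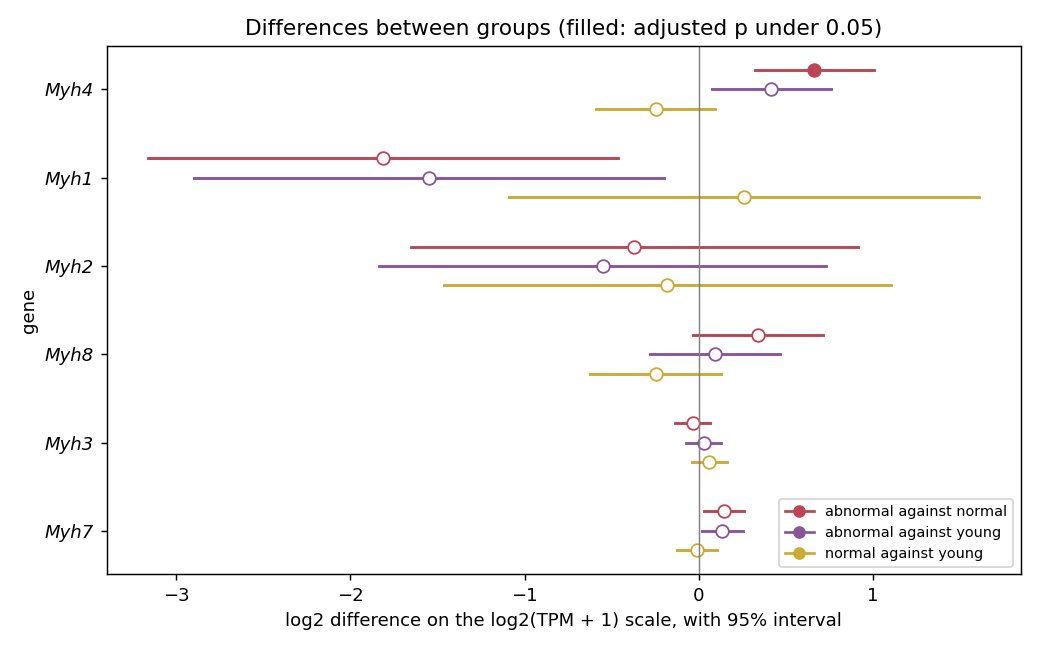
Differences on the log2(TPM + 1) scale between the groups (x axis) for each gene (y axis), with the 95% interval of limma as a line and filled points for an adjusted p under 0.05. The interval of *Myh4* between abnormal and normal fibers runs from 0.32 to 1.00 and is the filled one, while those of *Myh1* against both other groups lie below 0.

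Shares of the summed TPM of the 6 genes do not depend on the scaling of a sample. The sum itself was 10843 to 15631 TPM in abnormal, 6305 to 10310 TPM in normal and 8582 to 10538 TPM in young fibers, and *Myh4* made up nearly all of it. The *Myh4* share was 99.3%, 98.9%, 99.6% and 99.5% in replicates 1 to 4 of the abnormal fibers, 99.2%, 93.7%, 95.2% and 96.8% in normal fibers, and 97.3%, 98.5%, 98.3% and 96.8% in young fibers. All 4 abnormal samples were above all 4 young samples, and above 3 of the 4 normal samples and, for 3 of the 4, above normal replicate 1 as well. The means were 99.4% ± 0.33 (SD, n = 4), 96.2% ± 2.36 and 97.7% ± 0.80.

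The *Myh4* share was 1.62 percentage points higher in abnormal than in young fibers (two-sided exact permutation p = 0.0286), the smallest p that the 70 arrangements of 4 against 4 samples allow. Between abnormal and normal fibers the difference was 3.13 points (exact permutation p = 0.0571), and between normal and young fibers -1.51 points (exact permutation p = 0.314). The comparisons share samples, and 9 share tests were made, so the smallest p would not pass a correction for 9 tests. In each of the 4 pairs of aged samples with the same number, the abnormal sample had the higher *Myh4* share, and the exact sign-flip test over the pairs gave p = 0.125, the smallest its 16 flips allow. Without normal replicate 1 the difference between abnormal and normal fibers was 4.13 points (exact permutation p = 0.0286), and that between normal and young fibers was -2.50 points (exact permutation p = 0.0286).

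*Myh1* was the counterpart, since it made up most of what was not *Myh4*. Its share was 0.595%, 0.988%, 0.310% and 0.401% in abnormal fibers, 0.733%, 5.90%, 4.73% and 3.10% in normal fibers, and 2.62%, 1.39%, 1.51% and 3.05% in young fibers. Every abnormal sample was under 1%, as was normal replicate 1, and the other samples were at 1.39% to 5.90%. Reads from stretches shared by *Myh4* and *Myh1* could alter such low shares, and their part was not tested. The *Myh1* share was 1.57 points lower in abnormal than in young fibers (-1.57, exact permutation p = 0.0286), with means of 0.573% ± 0.301 and 2.14% ± 0.819 (SD, n = 4). Against normal fibers, at 3.62% ± 2.24, the difference was -3.04 points (exact permutation p = 0.0571), and -4.01 points without normal replicate 1 (exact permutation p = 0.0286). Normal and young fibers differed by 1.48 points (exact permutation p = 0.314), or 2.44 points without normal replicate 1 (exact permutation p = 0.0286). With any 1 abnormal sample left out, the differences from young fibers in both shares kept their sign and each had an exact permutation p = 0.0571.

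**Figure D3:**
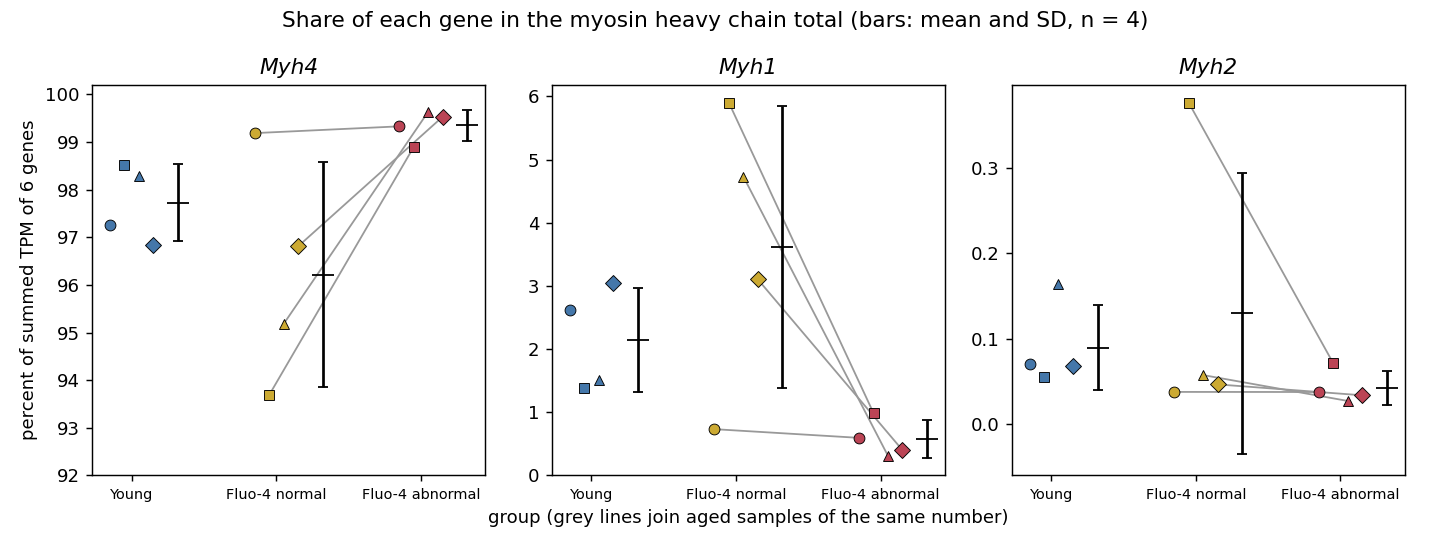
Percent of the summed TPM of the 6 genes held by *Myh4* (axis from 92%), *Myh1* and *Myh2* in each sample, with mean and SD beside the points (n = 4) and grey lines joining aged samples of the same number. The *Myh4* share is 98.9% to 99.6% with abnormal and 93.7% to 99.2% with normal staining, and every grey line rises for *Myh4* and falls for *Myh1* and *Myh2*.

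The *Myh2* share was 0.0272% to 0.0714% in abnormal fibers, 0.0378% to 0.377% in normal fibers and 0.0557% to 0.164% in young fibers. The groups overlapped, and the differences had exact permutation p = 0.371, p = 0.114 and p = 0.971 for abnormal against normal, abnormal against young and normal against young fibers. It was lower in the abnormal sample in 4 of 4 pairs, although in the pair of replicate 1 by a small margin (0.0377% against 0.0378%). *Myh8* held 0.0241% to 0.0457% of the sum, and *Myh3* and *Myh7* each held under 0.002% in each sample.

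Within groups, the adult fast isoforms had positive correlations with each other. Over the 12 samples on the log2(TPM + 1) scale, *Myh4* and *Myh1* had a Pearson r of -0.24, but of 0.57 for deviations from the group means. *Myh1* and *Myh2* had 0.61 and 0.63, and *Myh4* and *Myh8* 0.71 and 0.55, likewise, whereas *Myh4* and *Myh7* had 0.43 and -0.33. These values share the samples and their scaling, and are given as a description.

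Other genes lie within the cluster. *2310065F04Rik*, a long non-coding RNA gene between *Myh3* and *Myh2* on the reverse strand, was at 129.1 to 176.2 TPM in abnormal, 102.7 to 164.6 TPM in normal and 87.8 to 118.3 TPM in young fibers. It was 0.52 higher on the log2(TPM + 1) scale in abnormal than in young fibers (standard error 0.15), with no overlap of the samples, but the adjusted p was 0.061 from limma over all 22367 annotated genes. Between abnormal and normal fibers the difference was 0.32 (adjusted p = 0.26). *Myhas*, an antisense non-coding gene that overlaps 14550 bases of *Myh1* and 385 bases of *Myh4*, was at 120.2 to 186.3 TPM in abnormal, 142.9 to 176.1 TPM in normal and 185.6 to 221.3 TPM in young fibers. Its differences from young fibers were -0.44 in abnormal fibers (standard error 0.12, adjusted p = 0.052) and -0.40 in normal fibers (standard error 0.12, adjusted p = 0.19), and that between abnormal and normal fibers was -0.04 (adjusted p = 0.90). The libraries do not mark the strand, so reads of *Myhas* and of *Myh1* cannot be told apart where they overlap. *9430073C21Rik*, antisense at the end of *Myh2*, was at 0.756 TPM or less, the microRNA gene *Mir6923* within *Myh3* was listed at 0, and *Gm53683* and *Gm72458* were not analysed here.

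**Figure D4:**
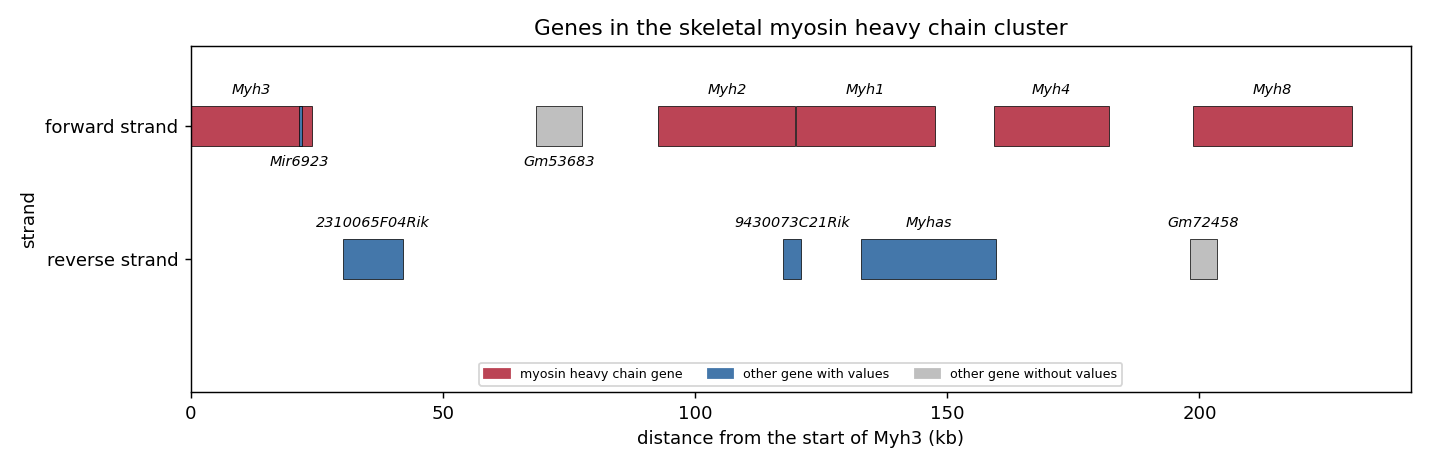
Genes between *Myh3* and *Myh8*, placed by the distance from the start of *Myh3* (x axis, kb) and by strand (y axis), with the myosin heavy chain genes in red, other genes with values in blue and those not analysed here in grey. The 5 myosin heavy chain genes are on the forward strand, and *Myhas* runs on the reverse strand from the start of *Myh4* into *Myh1*.

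Some genes outside the family followed the isoforms closely over the 12 samples. For *Myh4*, the 4 genes with the highest Pearson r on the log2(TPM + 1) scale among 6345 candidates were *Myo18b*, an unconventional myosin of the sarcomere (0.98), *Cacna1s*, the voltage sensor of excitation-contraction coupling (0.98), *Ppp3ca*, a catalytic subunit of calcineurin (0.97), and *Hipk3*, a protein kinase (0.97). For *Myh1* they were *Ldhb*, the lactate dehydrogenase subunit of oxidative tissue (0.94), *Dld*, a subunit of the mitochondrial dehydrogenase complexes (0.93), *Coq8a*, which acts in coenzyme Q synthesis (0.93), and *Sdha*, the flavoprotein subunit of succinate dehydrogenase (0.93). For *Myh2*, *Zfp524*, *Cyb5r4* and *Herc3* each had 0.86, with differences between abnormal and normal fibers of -0.12 to 0.01 on the log2(TPM + 1) scale. With TMM-type factors these differences were -0.19 (*Zfp524*), -0.31 (*Cyb5r4*) and -0.33 (*Herc3*).

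*Ldhb*, like *Myh1*, had its lowest Fluo-4 normal value in replicate 1. It was at 13.2, 13.1, 4.35 and 8.58 TPM in abnormal fibers, at 7.12, 57.7, 40.7 and 31.6 TPM in normal fibers, and at 23.1 to 30.2 TPM in young fibers. Normal replicate 1 was within the abnormal range, and all abnormal samples were under all young samples. All these genes were chosen for following an isoform over the same samples, so their differences between the groups are given as a description with no test. Between abnormal and normal fibers on the log2(TPM + 1) scale, the 4 genes that followed *Myh4* differed by 0.59 (*Ppp3ca*) to 0.90 (*Myo18b*), and by 0.36 to 0.68 with TMM-type factors. Those that followed *Myh1* differed by -1.50 (*Ldhb*), -0.84 (*Coq8a*), -0.34 (*Dld*) and -0.32 (*Sdha*), and by -1.70, -1.07, -0.56 and -0.55 with TMM-type factors. The correlations are over samples that share groups and scaling; with TMM-type factors they were 0.94 to 0.97 for *Myh4*, 0.77 to 0.95 for *Myh1* and 0.56 to 0.83 for the 3 genes named with *Myh2*.

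The other myosin heavy chain genes were low. *Myh14*, a nonmuscle myosin IIc gene, was highest, at 5.91 to 11.7 TPM in abnormal, 2.40 to 7.05 TPM in normal and 3.61 to 5.71 TPM in young fibers, a difference of 0.73 between abnormal and normal fibers (standard error 0.27, adjusted p = 0.11), which passed with the replicate block (adjusted p = 0.012) but was 0.45 without normal replicate 1 (adjusted p = 0.24). Under TMM-type scaling it was 0.54 (adjusted p = 0.24). Against young fibers, *Myh14* in abnormal fibers differed by 0.92 with no overlap (adjusted p = 0.053), and passed without normal replicate 1 (adjusted p = 0.011). *Myh13*, the extraocular isoform, was at 0.925 to 1.64 TPM in abnormal, 0.528 to 0.794 TPM in normal and 0.78 to 1.22 TPM in young fibers (0.34 between abnormal and normal fibers, adjusted p = 0.11). *Myh6* and *Myh7b*, expressed in the heart and in slow muscle, were at 0.197 TPM or less, *Myh15* was listed at 0, and the nonmuscle genes *Myh9* and *Myh10* were at 1.59 TPM or less. *Myh11*, a smooth muscle gene, was at 6.44 TPM in young replicate 2 and at 0.419 TPM or less in the others. Of the 7 tested of these 8 genes, none passed in any of the 3 comparisons.

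Of 11 fast fiber genes tested, 3 rose and none fell from normal to abnormal fibers, where 9.35% of all genes were called. The median log2 difference was 0.30, against 0.10 for all genes and 0.20 for genes of at least 5 TPM. All 11 had values above 0, but with TMM-type factors 6 did, 1 was called and the median was 0.07. With the replicate block 6 were called, and without normal replicate 1 the count was 3. *Mybpc2*, the fast myosin-binding protein C, was at 2850 ± 278 TPM in abnormal, 1760 ± 82.4 TPM in normal and 1938 ± 86.3 TPM in young fibers (SD, n = 4), and rose by 0.69 against normal fibers (standard error 0.079, adjusted p = 0.00052 from limma). With TMM-type factors it was the 1 gene still called (0.46, adjusted p = 0.019). *Actn3*, the alpha-actinin of fast fibers, rose by 0.77 (standard error 0.15, adjusted p = 0.0073), and *Casq1*, the Ca2+-binding protein of the fast sarcoplasmic reticulum, by 0.50 (standard error 0.072, adjusted p = 0.0017). *Casq1* was at 3665 ± 151 TPM in young fibers, 2284 ± 138 TPM in normal fibers and 3238 ± 167 TPM in abnormal fibers, and was the 1 fast fiber gene called between normal and young fibers, where it fell by 0.68 (standard error 0.072, adjusted p = 0.00042).

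Slow fiber genes had a median difference of 0.05 between abnormal and normal fibers, which turned to -0.016 without normal replicate 1. Among them, *Myl3*, *Myl6b*, *Tnnt1*, *Tnni1* and *Tnnc1* were at very low TPM, where the log2(TPM + 1) scale compresses differences. The median of 0.05 was that of *Tnnc1*, at a mean of 0.194 TPM in abnormal and 0.155 TPM in normal fibers. It therefore does not show that slow fiber genes were unchanged. Of 11 tested, 1 rose (2 with the replicate block), near the 9.35% of all genes called. This was *Atp2a2*, the slow and cardiac Ca2+ pump, from 2.02 ± 0.729 to 4.86 ± 1.49 TPM (SD, n = 4), by 0.95 (standard error 0.25, adjusted p = 0.030 from limma). It was not called without normal replicate 1 (0.77, adjusted p = 0.077), where *Casq2*, the cardiac calsequestrin, was the 1 slow fiber gene called (-1.05, adjusted p = 0.037). With all samples *Casq2* was at 1.24 ± 0.594 TPM in abnormal and 2.94 ± 1.59 TPM in normal fibers (-0.74, adjusted p = 0.15), and *Tnnt1*, the slow troponin T, at 0.0888 ± 0.178 and 0.317 ± 0.198 TPM (-0.28, adjusted p = 0.14).

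Among 13 genes of development and denervation, 1 rose between normal and abnormal fibers, a share under the 9.35% of all genes called. This was *Chrna1*, the alpha subunit of the acetylcholine receptor, from 7.94 ± 1.04 to 12.1 ± 1.80 TPM (SD, n = 4), by 0.55 (standard error 0.13, adjusted p = 0.018 from limma), and none was called with TMM-type factors (*Chrna1* 0.34, adjusted p = 0.11). *Tnnt2*, the cardiac and embryonic troponin T (0.56, adjusted p = 0.15), and *Mymx*, a fusion factor of myoblasts listed at 0 in 9 samples (-0.42, adjusted p = 0.20), did not pass. The median was 0.30, but 0.034 without normal replicate 1 and 0.091 with TMM-type factors.

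Of 22 regulators of fiber type, 2 were higher and 1 was lower in abnormal than in normal fibers, near the 9.35% of all genes called. These counts were 1 and 1 with TMM-type factors, 1 and 1 without normal replicate 1, and 9 and 1 with the replicate block. The median difference was 0.34, but 0.13 with TMM-type factors and 0.23 without normal replicate 1. *Mafa*, a large Maf factor known to act on *Myh4*, was at 29.0 ± 5.21 TPM in abnormal, 16.6 ± 3.12 TPM in normal and 24.2 ± 0.936 TPM in young fibers (SD, n = 4), and rose by 0.77 against normal fibers (standard error 0.15, adjusted p = 0.0068 from limma; 0.56 and 0.012 with TMM-type factors). *Mef2c*, a transcription factor of muscle genes, rose by 0.49 (standard error 0.13, adjusted p = 0.030), but not with TMM-type factors (0.26, adjusted p = 0.12) or without normal replicate 1 (0.38, adjusted p = 0.076). *Esrrg*, a nuclear receptor known for oxidative genes, fell by 0.93 (standard error 0.18, adjusted p = 0.0082), from 2.26 ± 0.842 to 0.682 ± 0.206 TPM, and with TMM-type factors by 1.04 (adjusted p = 0.0025).

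Of 11 genes of myosin folding and the thick filament, 4 rose between normal and abnormal fibers and none fell. Of all genes, 9.35% were called. The list median was 0.40, against 0.20 for all genes of at least 5 TPM. It was 0.35 for those of them with a canonical transcript of 6000 bases or more. None of the 11 genes was called with TMM-type factors, where the list median was 0.17, and 7 were with the replicate block. *Trim54*, a ubiquitin ligase of the sarcomere, rose by 0.38 (standard error 0.087, adjusted p = 0.017 from limma), *Myom2*, an M-band protein of fast fibers, by 0.46 (standard error 0.11, adjusted p = 0.019), and *Hsp90ab1*, a chaperone, by 0.39 (standard error 0.093, adjusted p = 0.020). The fourth, *Myom3*, named here after its values were seen, rose by 0.70 (standard error 0.20, adjusted p = 0.042; 0.59 and 0.11 without normal replicate 1) and was at 5.20 ± 0.830, 2.86 ± 0.942 and 0.955 ± 0.371 TPM in abnormal, normal and young fibers (SD, n = 4).

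**Figure D5:**
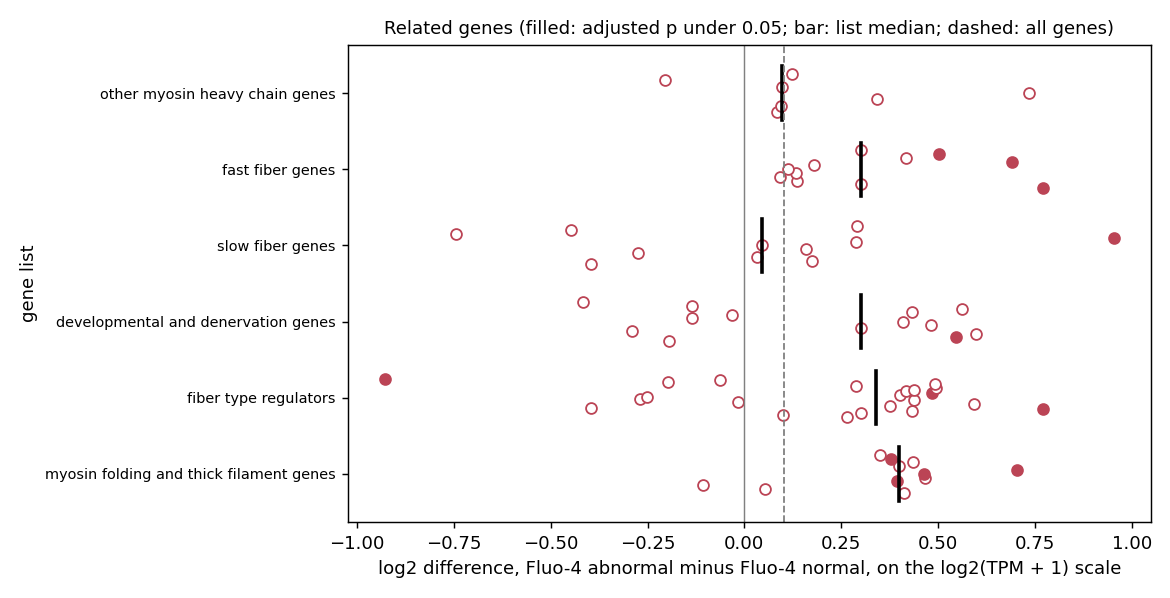
Difference between Fluo-4 abnormal and Fluo-4 normal fibers on the log2(TPM + 1) scale (x axis) for each gene of 6 lists (y axis), with filled points for an adjusted p under 0.05, a bar for the list median and a dashed line for the median of all genes, 0.10. All 11 fast fiber genes lie above 0 on this scale (6 with TMM-type factors), and the medians run from 0.05 for slow fiber genes to 0.40 for myosin folding and thick filament genes. The scale compresses differences of genes at very low TPM, among them several slow fiber genes.

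From young to abnormal fibers, *Mybpc2* (by 0.55, adjusted p = 0.0012 from limma) and *Actn3* (by 0.60, adjusted p = 0.025) were the 2 of 11 fast fiber genes that rose. Of all genes, 8.5% were called in this comparison. The other called genes of the lists are named after their values were seen. *Mybpc1*, the slow myosin-binding protein C, rose by 0.55 (adjusted p = 0.043), and in the development and denervation list *Chrna1* rose by 0.50 (adjusted p = 0.028) and *Myl4*, an embryonic and atrial light chain, by 0.76 (adjusted p = 0.0033). Of the regulators, *Mef2c* rose by 0.58 (adjusted p = 0.014) and *Prox1*, a homeobox factor, fell by 0.22 (adjusted p = 0.014). *Prox1* was near 0, at a mean of 0.201 TPM in young, 0.032 TPM in abnormal and 0.044 TPM in normal fibers. At such levels the log2(TPM + 1) scale compresses differences, and *Prox1* in normal fibers differed from young fibers by -0.20 (adjusted p = 0.065 from limma). Of the thick filament list, *Myom2* rose by 0.46 (adjusted p = 0.020) and *Myom3* by 1.67 (adjusted p = 0.00036), and *Smyd1*, a methyltransferase that acts with myosin chaperones, fell by 0.38 (adjusted p = 0.012). With TMM-type factors, *Actn3* (0.42, adjusted p = 0.12), *Mybpc1* (0.37, adjusted p = 0.13) and *Chrna1* (0.34, adjusted p = 0.096) were not called, and *Esrrg* was called as lower (-0.57, adjusted p = 0.049, against -0.50 and 0.11 without them). Without normal replicate 1, the thick filament list had 4 genes called higher in place of 2, and the regulators 2 in place of 1.

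From young to normal fibers, 2 genes of the 6 lists rose and 2 fell, where 1.15% of all genes were called. *Myl4* rose by 0.80 (adjusted p = 0.0099 from limma) and *Myom3* by 0.97 (adjusted p = 0.037), while *Casq1* fell as given above and *Smyd1* fell by 0.43 (adjusted p = 0.023). *Mafa* did not pass against young fibers in either aged group, with 0.23 in abnormal fibers (adjusted p = 0.38) and -0.54 in normal fibers (adjusted p = 0.10).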

How the data were processed

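RNA of 12 samples of isolated EDL myofibers, 4 each of young, Fluo-4 normal and Fluo-4 abnormal fibers, was made into unstranded full-length cDNA libraries. The authors aligned the reads with DRAGEN to GRCm39 and deposited TPM values per gene; the annotation release is not given in the sources used here. Lines with the same symbol were summed. The labels do not say that samples of a group came from separate mice, so p-values measure the spread between samples.

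Tests used limma 3.58.1 (R 4.3.3) with a mean-variance trend on log2(TPM + 1), 1 fit over the 3 groups, for 14428 protein-coding and mitochondrial genes with a group mean of at least 0.02 TPM, and Benjamini-Hochberg adjustment over all of them. Shares were compared by two-sided exact permutation tests. Aged samples with the same number correlated (r = 0.281 to 0.423 over 6348 genes, against -0.346 to 0.221 for different numbers), so they were treated as pairs in an alternative fit. Genes outside the family were named as the 4 most correlated with each adult fast isoform (1 of those is not reported here) and the 3 of each list with the smallest p between abnormal and normal fibers. Members and lists were chosen with earlier results of these data known. The fit was tested on simulated data. Sequences were compared with BLAST 2.17.0.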

Additional observations from a re-analysis of the deposited data

Results flagged for a closer look

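A sample far from the other 3 of its group was found in 6 of the 27 groups of 4 values examined for the 6 genes, and chance alone gives about 1 in 20. The groups are not independent, since both *Myh2* shares named here are of samples whose *Myh2* TPM stood apart too. *Myh2* TPM was high in young replicate 3 (17.2), Fluo-4 normal replicate 2 (34.6) and Fluo-4 abnormal replicate 2 (10.6). The *Myh2* share of the summed TPM of the 6 genes was high in young replicate 3 (0.164%) and Fluo-4 normal replicate 2 (0.377%). *Myh8* TPM was low in Fluo-4 normal replicate 1 (2.55).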

How the results depend on the processing

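Of the 6 genes, the count called between abnormal and normal fibers was 1, but 0 with TMM-type factors, 0 with only the 2 groups compared, 2 with a filter of 5 TPM (*Myh4* and *Myh1*) and 2 with the replicate block (*Myh4* and *Myh1*), and 0 to 1 with 1 sample left out. Between abnormal and young fibers it was 0, but 1 with only the 2 groups compared and 0 to 1 with 1 sample left out. The *Myh4* difference between abnormal and normal fibers was 0.44 to 0.76 over all alternatives (adjusted p = 0.0010 to 0.18 from limma), and the blocked fit of the paired aged samples gave adjusted p = 0.0010 for *Myh4* and 0.025 for *Myh1*. The block with TMM-type factors and the list counts without normal replicate 1 were chosen after seeing the data. Over all genes, TMM-type factors changed the calls from 1349 to 848.

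With 1 sample left out, the *Myh4* share differences were 2.29 to 4.13 points (abnormal against normal), 1.33 to 1.88 (abnormal against young) and -2.50 to -0.67 (normal against young), those of *Myh1* -4.01 to -2.28, -1.82 to -1.27 and 0.71 to 2.44, and that of *Myh2* between normal and young fibers -0.042 to 0.071. The last also turned to -0.048 as a log2 ratio to the other genes. On the log2(TPM + 1) scale, differences that changed sign, with 1 sample left out, were *Myh2* between abnormal and normal fibers (-0.78 to 0.35), *Myh8* between abnormal and young fibers (-0.048 to 0.17, and -0.045 with TMM-type factors), and *Myh1* (-0.13 to 1.04) and *Myh2* (-0.90 to 0.23) between normal and young fibers. None of these differences that changed sign passed the threshold, and the cause was not tested. The filter of 5 TPM gives no value for *Myh3*, *Myh7* and *Myh8*. The depth is unknown, so no counting error can be given for genes near 0.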
